A study of Mus musculus with 46 samples.

Results

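*Pomc*, *Cartpt*, *Prokr1*, *Asb4* and *Nptx2*, 5 genes tied to the proopiomelanocortin (POMC) neurons of the hypothalamic arcuate nucleus, were followed through the ribosome-bound RNA of POMC and AgRP neurons and through the open chromatin of AgRP neurons. They are 5 of the 31854 genes counted, and 32 of 67472 ATAC-seq peaks in sorted nuclei and 57 of 123721 peaks in AgRP nuclei of 3 feeding states had their centres within 50 kb of a start site of these genes. *Pomc*, *Cartpt* and *Prokr1* were chosen by their RNA levels in fed POMC against fed AgRP neurons, so their fed values are a description. No readout is recorded for the choice of *Asb4* and *Nptx2*, and the tests on them are therefore not independent evidence of their direction.

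The animals were male C57BL/6J NuTRAP mice of 6 to 11 weeks, which carry a Cre-dependent cassette for a GFP-tagged L10a ribosomal subunit and an mCherry-tagged RANGAP nuclear membrane protein. They were crossed to AgRP-IRES-Cre (NuTRAP-AgRP) or POMC-IRES-Cre (NuTRAP-Pomc) mice, so that the RNA and ATAC-seq groups share the cassette and the RNA groups differ in the Cre line. The IRF3 CUT&RUN sample is of another genotype, the IRF3-2D overexpression model, in which AgRP-IRES-Cre turns on a constitutively active IRF3 in AgRP neurons. Fed mice ate freely and received PBS, fasted mice went without food for 18 to 20 h and received PBS, and leptin-treated mice were fasted in the same way and received 5 mg/kg leptin intraperitoneally, with the arcuate nucleus dissected 3 h after injection. Translating ribosome affinity purification (TRAP) gave 3 fed, 4 fasted and 4 leptin libraries from AgRP neurons and 2 libraries of each state from POMC neurons, each from 4 pooled arcuate nuclei, with between 25581041 and 54511107 reads on genes. ATAC-seq, with 4 mice pooled per sample, covered 2 libraries each of AgRP-positive and AgRP-negative nuclei from fed, untreated mice (8685497 to 11177208 reads in peaks) and 2 libraries of AgRP nuclei in each state (8263234 to 17190963 reads in peaks). POMC-IRES-Cre is also active for a time in progenitors that give rise to other arcuate neurons, AgRP neurons among them, and the AgRP-negative nuclei are a mixture of all other cells of the dissection.

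POMC neurons lower food intake, and AgRP neurons, their neighbours in the arcuate nucleus, raise it. Leptin, the adipocyte hormone that falls in a fast, acts on both through the leptin receptor and STAT3. POMC is a prohormone that the convertases PC1/3 and PC2, the carboxypeptidase CPE and the amidating enzyme PAM cut into melanocortin peptides. The melanocortin α-MSH activates the receptors MC3R and MC4R, which AgRP blocks. CART, the product of *Cartpt*, is a second peptide of many POMC neurons. *Prokr1* encodes a G protein-coupled receptor for prokineticins, *Asb4* the substrate-binding subunit of a cullin ubiquitin ligase, and *Nptx2* a secreted pentraxin that gathers AMPA receptors at excitatory synapses.

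In GRCm38, *Pomc* lies at chr12:3954951-3960642 on the plus strand, *Cartpt* at chr13:99898489-99901091 on the minus strand, *Prokr1* at chr6:87578591-87590743 on the minus strand, *Asb4* at chr6:5383386-5433022 on the plus strand and *Nptx2* at chr5:144545902-144557478 on the plus strand. The sequences below are the start regions of both peptide genes, shown because both genes were called between the neuron types, and the central 300 bases of the peaks with the clearest accessibility values near each gene. Each reads 5′ to 3′ on the strand of its gene in GRCm38.p6, and capitals mark the letters TTCNNNGAA (STAT), TGANTCA (AP-1), TGACGTCA (CRE), a doubled GAAA with a pair of bases between (ISRE-like), GTAAACA (FOXO), TAATTA (homeodomain) or CAAGTG (NKX2) on either strand. The start regions are RefSeq's, from 250 bases before to 50 after the annotated start, and the RefSeq start of *Cartpt* lies inside the longer annotated gene. *Nptx2* had no entry among them.
*Pomc* start region, chr12:3954695-3954994: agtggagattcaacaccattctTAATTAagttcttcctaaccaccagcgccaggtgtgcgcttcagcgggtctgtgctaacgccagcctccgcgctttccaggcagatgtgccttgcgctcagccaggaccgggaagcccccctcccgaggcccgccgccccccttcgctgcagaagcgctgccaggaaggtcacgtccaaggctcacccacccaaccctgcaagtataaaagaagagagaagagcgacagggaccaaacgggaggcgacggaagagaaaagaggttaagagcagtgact
*Cartpt* start region, chr13:99900634-99900933: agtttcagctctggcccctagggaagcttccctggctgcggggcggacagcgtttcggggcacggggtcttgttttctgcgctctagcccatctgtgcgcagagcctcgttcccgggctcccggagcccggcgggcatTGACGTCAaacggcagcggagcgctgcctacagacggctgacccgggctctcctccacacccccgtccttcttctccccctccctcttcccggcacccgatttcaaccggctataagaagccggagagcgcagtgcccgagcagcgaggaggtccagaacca
*Pomc* peak at -12.6 kb, chr12:3942238-3942537: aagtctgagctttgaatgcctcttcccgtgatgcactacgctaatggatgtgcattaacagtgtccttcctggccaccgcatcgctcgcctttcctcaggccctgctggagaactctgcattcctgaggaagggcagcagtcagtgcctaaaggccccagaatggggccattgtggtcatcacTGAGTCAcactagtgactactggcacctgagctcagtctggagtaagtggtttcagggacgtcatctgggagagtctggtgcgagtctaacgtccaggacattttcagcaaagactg
*Cartpt* peak at -18.9 kb, chr13:99919871-99920170: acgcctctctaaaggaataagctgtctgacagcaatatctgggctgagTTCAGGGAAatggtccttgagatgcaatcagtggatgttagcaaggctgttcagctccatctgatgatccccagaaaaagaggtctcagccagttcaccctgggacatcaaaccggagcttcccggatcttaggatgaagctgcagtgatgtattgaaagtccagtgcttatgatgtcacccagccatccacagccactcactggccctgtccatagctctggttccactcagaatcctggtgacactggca
*Prokr1* peak at +39.1 kb, chr6:87551513-87551812: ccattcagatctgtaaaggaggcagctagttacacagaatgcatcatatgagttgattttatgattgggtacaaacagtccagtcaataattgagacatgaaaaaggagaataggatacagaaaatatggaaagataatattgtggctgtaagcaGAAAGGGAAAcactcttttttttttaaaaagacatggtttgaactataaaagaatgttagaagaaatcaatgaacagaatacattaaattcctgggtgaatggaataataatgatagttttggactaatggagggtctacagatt
*Asb4* peak at -8.2 kb, chr6:5375054-5375353: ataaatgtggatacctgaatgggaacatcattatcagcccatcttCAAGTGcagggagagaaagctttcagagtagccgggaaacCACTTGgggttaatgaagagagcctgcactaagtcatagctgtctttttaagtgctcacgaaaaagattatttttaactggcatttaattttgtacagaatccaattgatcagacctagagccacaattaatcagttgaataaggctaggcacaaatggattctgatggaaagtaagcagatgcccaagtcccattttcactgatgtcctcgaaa
*Asb4* peak at +0.7 kb, chr6:5383942-5384241: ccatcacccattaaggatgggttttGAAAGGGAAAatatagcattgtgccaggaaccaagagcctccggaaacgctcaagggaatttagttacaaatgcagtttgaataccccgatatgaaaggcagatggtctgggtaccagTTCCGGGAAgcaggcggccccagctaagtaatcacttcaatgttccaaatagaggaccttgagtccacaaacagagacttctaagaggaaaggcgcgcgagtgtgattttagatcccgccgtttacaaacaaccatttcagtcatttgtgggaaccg
*Nptx2* peak at -2.8 kb, chr5:144542960-144543259: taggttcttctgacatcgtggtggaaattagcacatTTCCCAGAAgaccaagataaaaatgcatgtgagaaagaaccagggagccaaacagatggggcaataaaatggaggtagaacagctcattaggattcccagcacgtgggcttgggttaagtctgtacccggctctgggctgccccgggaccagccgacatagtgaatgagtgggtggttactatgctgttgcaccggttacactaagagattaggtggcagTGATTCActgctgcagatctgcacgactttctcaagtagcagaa

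The *Pomc* start region held the homeodomain letters TAATTA, which 5.29% of 32851 RefSeq start regions hold, and the *Cartpt* start region held the full CRE palindrome, found in 1.79% of them. The *Asb4* peak in its first intron, at +0.7 kb, held both the STAT letters and the ISRE-like letters, which were present in 11.1% and 4.03% of the central 300 bases of 67389 sorted-nuclei peaks. The *Asb4* peak at -8.2 kb held CAAGTG once on each strand, and 14.2% of sorted-nuclei peaks held it at least once. These letters are also an E-box (CANNTG), which 75.5% of those peaks contain. The *Nptx2* peak at -2.8 kb held the STAT and AP-1 letters, with shares of 12.4% and 31.2% among 123663 peaks of the 3 states. Of the 32 sorted-nuclei peaks near the 5 genes, 6 (18.8%) held the STAT letters, 5 (15.6%) AP-1 and 4 (12.5%) ISRE-like, and of the 57 peaks of the 3 states 7 (12.3%), 13 (22.8%) and 3 (5.26%). A match of letters is a description of the sequence, not of a bound site.

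*Pomc* and *Cartpt* were abundant in POMC neurons in every state and stayed low in AgRP neurons. *Pomc* was at 2064 and 1281 CPM (read counts scaled to library size and composition) in the 2 fed POMC libraries, at 1493 and 1126 in the fasted and at 1601 and 1428 in the leptin libraries. In AgRP neurons it was at 21.5, 31.6 and 36.9 CPM when fed, at 20.1, 17.4, 27.2 and 29.3 when fasted and at 29.7, 42.0, 44.0 and 37.6 after leptin. No AgRP library came near any POMC library. By mean CPM *Pomc* ranked 19 among all genes in fed POMC neurons and 6214 in fed AgRP neurons, and its mean in fed POMC neurons was 55.8 times that in fed AgRP neurons. In that fed comparison 2.17% of all genes passed the call rule given below (1.11% higher and 1.06% lower in POMC neurons), and nothing is read from the 3 genes' place among them.

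*Cartpt* was at 778 and 466 CPM in fed, 510 and 365 in fasted and 517 and 262 in leptin-treated POMC neurons, against 41.5 ± 7.50 (SD, n = 3), 39.3 ± 4.79 (SD, n = 4) and 39.3 ± 11.6 (SD, n = 4) in AgRP neurons of the same states. Its fed level was 15.0 times as high in POMC neurons. *Prokr1*, the least abundant of the 5, was at 47.7 and 32.3 CPM in fed, 61.7 and 36.1 in fasted and 47.1 and 24.0 in leptin-treated POMC neurons. In AgRP neurons it lay between 1.66 and 4.37 CPM over all 11 libraries, so that the fed levels differed 16.0-fold.

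*Asb4* and *Nptx2* were not separated by neuron type in this way, and the order of their mean levels turned with feeding state. POMC neurons had 2 libraries per state. Without a replicate block, edgeR called the difference in fasting response between the neuron types for neither gene (FDR = 0.0953 and 0.304, given below). *Asb4* was at 703 and 323 CPM in fed POMC neurons and at 223, 247 and 194 in fed AgRP neurons, 2.32 times as high in POMC neurons with no overlap. In fasted mice it stood at 151 and 111 CPM in POMC neurons and at 226, 159, 202 and 207 in AgRP neurons, and after leptin at 187 and 111 against 365, 332, 429 and 263. *Nptx2* was at 146 and 93.0 CPM in fed POMC neurons and at 75.6, 101 and 69.8 in fed AgRP neurons, where the groups overlapped. It was at 86.4 and 56.4 against 139, 166, 164 and 103 CPM in fasted mice, and at 133 and 90.6 against 277, 372, 575 and 215 after leptin.

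Per kilobase of gene model, the order of mean levels in fed POMC neurons was *Pomc* at 1262, *Cartpt* at 711, *Asb4* at 148.5, *Nptx2* at 46.8 and *Prokr1* at 9.46 CPM per kb. In fed AgRP neurons *Asb4* came first at 64.1, before *Cartpt* at 47.4, *Nptx2* at 32.3, *Pomc* at 22.6 and *Prokr1* at 0.593 CPM per kb. *Nptx2* and *Pomc* were within their spread of each other there, with SDs of 6.57 and 5.88. After leptin *Nptx2* led the AgRP neurons at 141 ± 61.8 CPM per kb (SD, n = 4), which overlapped with *Asb4* at 100.4 ± 20.02. Fewer cells of a type and less RNA per cell cannot be told apart in such pooled samples.

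**Figure D1:**
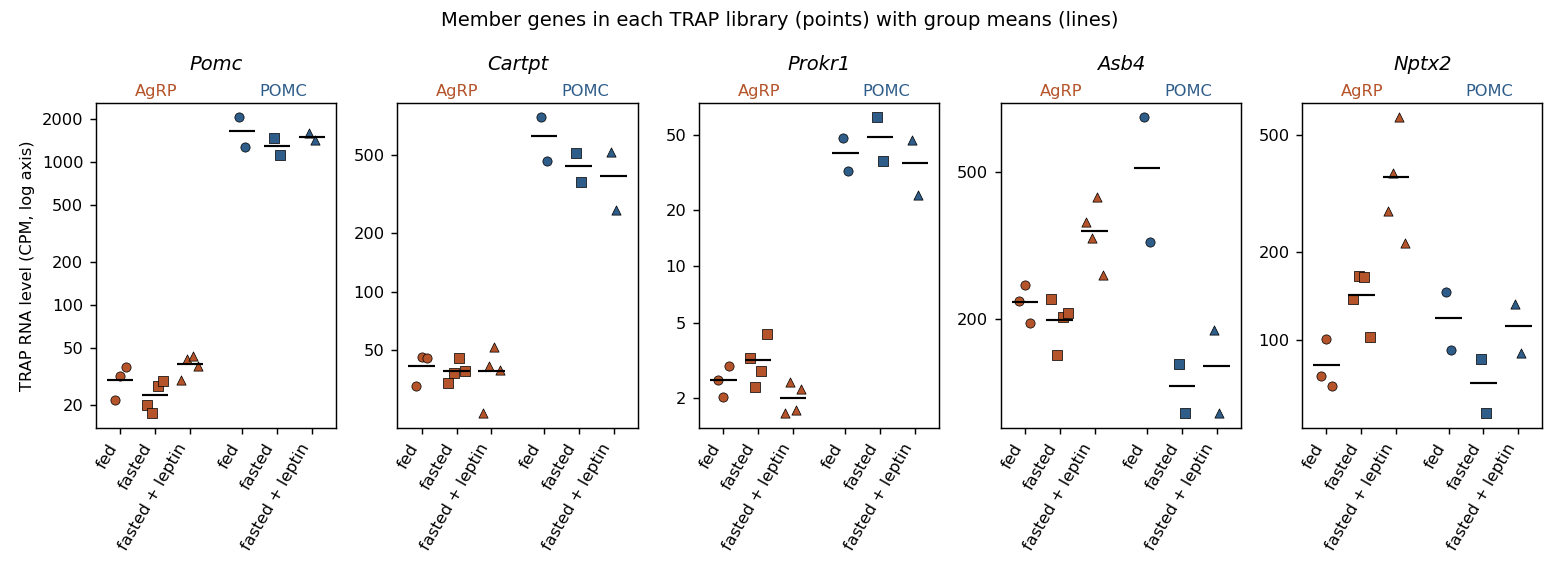
RNA level of each of the 5 genes in CPM on a log axis, with 1 point per TRAP library and a line at each group mean, for AgRP neurons (fed n = 3, fasted n = 4, fasted with leptin n = 4) and POMC neurons (n = 2 each). *Pomc*, *Cartpt* and *Prokr1* are higher in every POMC library than in any AgRP library, while the group means of *Asb4* and *Nptx2* change order between the neuron types with state.

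The fasted and the leptin libraries of POMC and AgRP neurons were then compared, to describe the genes outside the fed state. The Cre lines were the same, and AgRP libraries of the same number are alike across states (given below). *Pomc*, *Cartpt* and *Prokr1* were chosen by their fed difference. For these 3 genes the tests largely repeat that choice and are not independent evidence. Calls required both an FDR (false discovery rate over all genes tested) under 0.05 and a change of more than 0.5 on the log2 scale, up or down. In fasted mice *Pomc* was higher in POMC neurons by 5.82 ± 0.256 on the log2 scale (SE, FDR = 0.000197), *Cartpt* by 3.49 ± 0.173 (FDR = 0.000197) and *Prokr1* by 3.97 ± 0.292 (FDR = 0.000973). These 3 of the 5 genes were called higher in POMC neurons, against 7.46% of all 13412 genes tested (2.88% higher). The change of *Asb4* was -0.59 ± 0.188 (FDR = 0.104) and that of *Nptx2* -0.99 ± 0.256 (FDR = 0.0596), both with the POMC libraries below all AgRP libraries.

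After leptin the same 3 genes were higher in POMC neurons, *Pomc* by 5.31 ± 0.197 (FDR = 9.67e-05), *Cartpt* by 3.31 ± 0.337 (FDR = 0.00474) and *Prokr1* by 4.14 ± 0.286 (FDR = 0.00190), and *Asb4* was lower, at -1.22 ± 0.273 (FDR = 0.0499). That made 3 genes called higher and 1 lower, against 4.75% of all genes (1.97% higher, 2.78% lower). *Nptx2* was at -1.69 ± 0.407 (FDR = 0.0624), 0.310 times the AgRP level with no overlap. DESeq2 called *Nptx2* lower in POMC neurons in both states (FDR = 0.00347 in fasted mice and 8.61e-05 after leptin), and after leptin it also passed by library size alone (FDR = 0.0306) and with no filter (FDR = 0.0495). The *Asb4* call was lost with RLE scaling (FDR = 0.0514), with all 3 states pooled (-0.18, FDR = 0.662), and without any 1 of AgRP leptin replicates 1, 2 and 3 (FDR = 0.126, 0.116 and 0.113) or POMC leptin replicates 1 and 2 (FDR = 0.0749 and 0.195), and *Nptx2* passed without AgRP leptin replicate 4 (FDR = 0.0194) and, in fasted mice, without AgRP fasted replicate 4 (FDR = 0.0106).

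Most tested markers of POMC neurons were also higher there, in lists chosen with earlier results of these data known. Of the 9 tested markers other than the 5 genes, 7 were called higher in fasted mice, beside 2.88% of all genes. Among them were *Prdm12* (4.98 on the log2 scale) and *Sox3* (4.07), transcription factors of the POMC lineage, *Glp1r* (2.50), the GLP-1 receptor, and *Anxa2* (1.94). After leptin 6 were called higher, beside 1.97% of all genes. The remaining markers did not pass in either direction. All 6 AgRP neuron markers were lower in POMC neurons in both states, beside 4.59% of all genes in fasted mice and 2.78% after leptin. Of the regulators of *Pomc* transcription and POMC neuron fate, 5 of 10 tested were higher in fasted POMC neurons, including *Nkx2-1* (2.13) and *Nhlh2* (2.44), and *Stat3* (-1.13) and *Foxo1* (-1.79), which act on the *Pomc* promoter in opposite ways, were lower. The regulator list and the POMC marker list share *Prdm12*, *Nhlh2*, *Tbx3* and *Sox3*, so their counts are not separate. In the list of prohormone processing and melanocortin signaling, *Mrap2*, an accessory protein of melanocortin receptors, was higher (0.84) and the protease gene *Ctsl* lower (-0.76), and the other 10 did not pass. The median log2 fold change of the marker list was 1.94, that of the regulators 0.54 and that of the processing genes -0.19, beside 0.03 over all genes tested.

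The pituitary, whose corticotrophs and melanotrophs also express *Pomc*, lies below the arcuate nucleus. Its 10 markers summed to between 3.19 and 8.24 CPM in AgRP libraries, 12.6 to 16.9 in fed, 11.3 to 18.3 in fasted and 26.9 to 48.6 in leptin-treated POMC libraries, and 4 of the 5 tested (*Tbx19*, *Cga*, *Gh* and *Pitx1*) were higher in POMC than in AgRP neurons after leptin, while 1 of the 10 was at 0 in both leptin-treated POMC libraries. The part of this signal in the *Pomc* values was not tested. The astrocyte glutamate transporter gene *Slc1a2* took 1.93% to 2.36% of reads in the AgRP libraries numbered 4 against 0.240% to 0.433% in the other 8, and 2.14% to 2.42% in the POMC libraries numbered 2 against 0.539% to 0.641%. Without these 6 libraries the calls for *Pomc*, *Cartpt* and *Prokr1* in both states and for *Asb4* after leptin stood, and *Nptx2* passed in fasted mice (log2 fold change -0.82, FDR = 0.00853). This leaves 1 POMC library per state, so the spread in these fits comes from the AgRP libraries alone.

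Fasting and leptin were then compared within AgRP neurons. With edgeR, *Asb4* and *Nptx2* rose with leptin, against fasted and against fed mice, and of the other 3 genes *Pomc* alone was called, from fasted to leptin and with the replicate number as a block. From fasted to leptin-treated mice *Asb4* rose by 0.80 ± 0.148 on the log2 scale (FDR = 0.0159), 1.75-fold in mean CPM, and *Nptx2* by 1.33 ± 0.274 (FDR = 0.0288), 2.52-fold, and the leptin libraries of both lay above all fasted libraries. These 2 of 5 genes were called higher, against 1.83% of 13401 genes tested (1.19% higher). The 4 same-numbered pairs of fasted and leptin libraries gave ratios between 1.27 and 2.12 for *Asb4* and between 2.00 and 3.5 for *Nptx2*. With the replicate number as a block both passed (FDR = 0.000301 and 3.59e-05), and without the libraries numbered 4 they stayed called.

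Without the block both calls rested on single libraries. *Asb4* missed the threshold without AgRP fasted replicate 3 (FDR = 0.0518) or AgRP leptin replicate 1 (FDR = 0.0537). *Nptx2* missed it without AgRP fasted replicate 1 (FDR = 0.0975), 2 (FDR = 0.0578), 3 (FDR = 0.0657) or 4 (FDR = 0.0601), AgRP fed replicate 1 (FDR = 0.05002) or AgRP leptin replicate 2 (FDR = 0.0762). With each library left out in turn, the change lay between 0.69 and 0.91 for *Asb4* and between 1.01 and 1.51 for *Nptx2*.

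*Pomc* itself had a log2 fold change of 0.71 ± 0.214 from fasted to leptin-treated AgRP neurons (FDR = 0.177), with the 4 leptin libraries above the 4 fasted libraries. With the replicate number as a block the change was 0.73 and *Pomc* was called (FDR = 0.00166), as it was by DESeq2 (FDR = 0.0339), and the paired ratios were 1.48, 2.42, 1.62 and 1.28. *Prokr1* was at -0.65 ± 0.227 (FDR = 0.287) at levels of 1.66 to 4.37 CPM, and *Cartpt* at 0.00 ± 0.211 (FDR = 1.00). The *Pomc* level in these leptin-treated AgRP neurons, 38.3 ± 6.34 CPM (SD, n = 4), remained far below the 1514 ± 122 CPM (SD, n = 2) of leptin-treated POMC neurons.

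In AgRP neurons of fasted against fed mice none of the 5 genes was called by edgeR, beside 3.89% of all genes (2.82% higher, 1.07% lower), and 1 of them had an unadjusted p under 0.05. DESeq2 called 0. That gene was *Nptx2*, at 0.80 ± 0.296 (FDR = 0.159), whose 4 fasted libraries all lay above its 3 fed libraries. With the replicate number as a block it was called at 0.74 (FDR = 0.00239), and the 3 pairs gave ratios of 1.83, 1.62 and 1.47. *Pomc* was at -0.34 ± 0.230 (FDR = 0.469), *Cartpt* at -0.07 ± 0.227 (FDR = 0.927), *Prokr1* at 0.35 ± 0.246 (FDR = 0.492) and *Asb4* at -0.15 ± 0.159 (FDR = 0.697).

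Against fed mice, leptin-treated fasted mice had higher *Nptx2* by 2.13 ± 0.312 (FDR = 0.00258), 4.37-fold in mean CPM, and higher *Asb4* by 0.65 ± 0.161 (FDR = 0.0317), 1.57-fold, beside 5.48% of all genes called (3.73% higher). No library of either gene overlapped between these groups. The *Nptx2* call held without each library in turn. *Asb4* missed the threshold without AgRP fed replicates 1, 3 or 4 (FDR = 0.102, 0.0569 and 0.132), AgRP leptin replicates 1, 2 or 3 (FDR = 0.0670, 0.0586 and 0.0760) or AgRP fasted replicate 3 (FDR = 0.0516). *Pomc* was at 0.36 ± 0.232 (FDR = 0.405), *Cartpt* at -0.07 ± 0.227 (FDR = 0.922) and *Prokr1* at -0.29 ± 0.247 (FDR = 0.553).

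The relatives and partners of the 5 genes mostly stayed below the threshold in AgRP neurons. In the 3 contrasts the lowest FDR was 0.509 (*Gria1*) among the 6 other pentraxin and AMPA receptor genes, 0.0913 (*Asb1*) among the 8 tested of 17 other ASB family genes and 0.151 (*Prokr2*) among the 2 tested of 3 prokineticin genes. With the replicate number as a block *Prokr2* was called higher for leptin against fed (0.62, FDR = 0.000416). Among 12 genes of prohormone processing and melanocortin signaling, *Pcsk1*, which encodes PC1/3, rose with fasting by 0.74 (FDR = 0.00512), *Mrap2* fell by 0.62 on the log2 scale (FDR = 0.00259), with a list median of 0.13 beside 0.02 over all genes, and *Mc3r* rose with leptin by 0.76 (FDR = 0.0206). *Nr4a1*, an immediate-early nuclear receptor of the *Pomc* regulator list, rose with fasting by 1.60 (FDR = 0.0262) and fell by 1.87 with leptin (FDR = 0.0114). The block added *Foxo1* for fasting (0.56, FDR = 0.00114) and *Isl1* for leptin against fed (0.51, FDR = 0.000236).

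In POMC neurons the same comparisons called none of 13412 genes with edgeR (0%), and 282, 151 and 282 genes had an unadjusted p under 0.05 for fasted against fed, leptin against fasted and leptin against fed. DESeq2 called 3, 10 and 7 genes, none of them among the 5. With the replicate number as a block edgeR called 0 genes higher and 3 lower for fasted against fed, 7 and 1 for leptin against fasted, and 26 and 18 for leptin against fed. The largest values of the 5 genes belonged to *Asb4*, which stood at 703 and 323 CPM in fed, 151 and 111 in fasted and 187 and 111 in leptin-treated POMC neurons, with no overlap between fed and the other states. Its log2 fold change was -1.97 ± 0.455 in fasted against fed mice (FDR = 1.00), 0.255 times the fed mean, and -1.79 ± 0.453 after leptin against fed (FDR = 1.00). From fasted to leptin it was 0.17 ± 0.440 (FDR = 1.00). With the block *Asb4* was called lower in fasted (-1.88, FDR = 0.00202) and in leptin-treated mice (-1.75, FDR = 0.00355) against fed mice.

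*Nptx2* had a log2 fold change of -0.74 ± 0.337 with fasting and 0.63 ± 0.336 from fasted to leptin-treated POMC neurons, each with non-overlapping pairs of libraries (FDR = 1.00, and 0.0125 and 0.0177 with the block). *Pomc* was at -0.35 ± 0.291 with fasting and 0.20 ± 0.291 with leptin, *Cartpt* at -0.51 ± 0.416 and -0.18 ± 0.415, and *Prokr1* at 0.29 ± 0.425 and -0.47 ± 0.426 (FDR = 1.00 for each), and the libraries of these 3 overlapped between states. *Cartpt* was at -0.68 ± 0.417 after leptin against fed (FDR = 1.00, and -0.71 with FDR = 0.0327 in the block). The libraries numbered 2 are those with high *Slc1a2*, and the part of this in the blocked calls was not tested.

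The difference between the neuron types in their response was tested directly, as the POMC effect minus the AgRP effect. For fasting it was -1.81 ± 0.418 for *Asb4* (FDR = 0.0953) and -1.54 ± 0.503 for *Nptx2* (FDR = 0.304), and edgeR called none of the 5 genes beside 0.164% of 13435 genes (0.0223% higher, 0.141% lower), with 2 of the 5 at an unadjusted p under 0.05. DESeq2 called 1, *Asb4*. With the replicate number as a block *Asb4* (-1.79, FDR = 0.000157) and *Nptx2* (-1.47, FDR = 0.000584) were called, beside 254 genes called higher and 582 lower. *Asb4* also passed without POMC fed replicate 2 (log2 difference -2.27, FDR = 0.0442). *Pomc* had a difference of 0.00 ± 0.372, *Cartpt* of -0.43 ± 0.449 and *Prokr1* of -0.05 ± 0.450. For leptin against fasted the 5 differences lay between -0.69 and 0.19 with FDR = 1.00 each, edgeR and DESeq2 called none of the 5 beside 0.0819% of all genes (0.0372% higher, 0.0447% lower), and 0 of the 5 had an unadjusted p under 0.05.

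**Figure D2:**
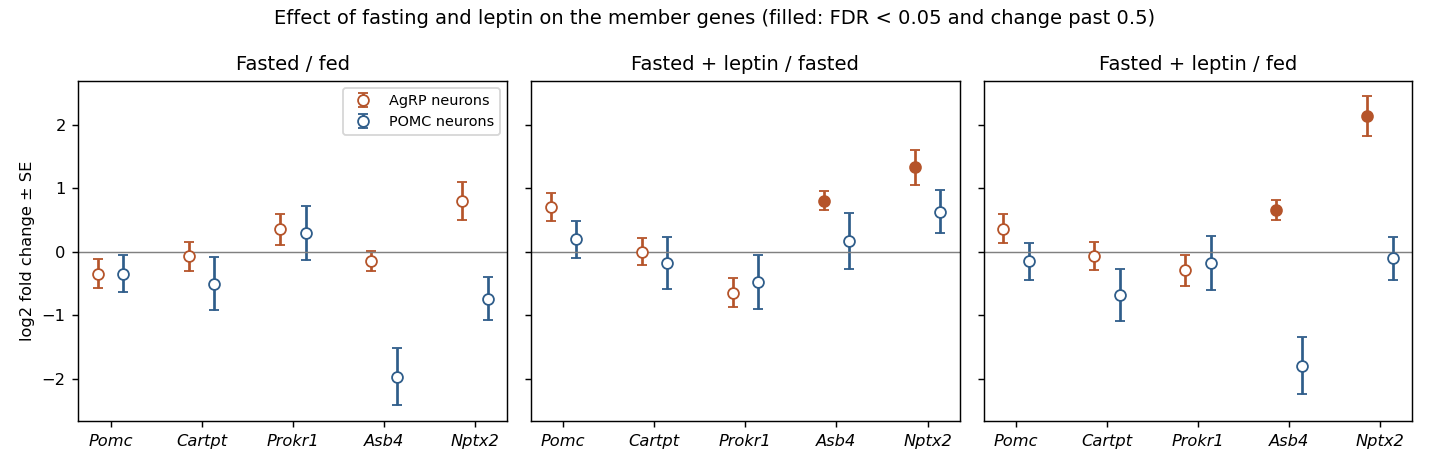
Log2 fold change with its standard error for the 5 genes in AgRP neurons and POMC neurons, for fasted over fed, leptin over fasted and leptin over fed mice, with filled points for called genes. The 4 filled points are *Asb4* and *Nptx2* in AgRP neurons after leptin, and *Asb4* in fasted POMC neurons is the lowest point at -1.97.

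The genes whose levels ran most like each of the 5 were ranked by the lower of 2 Pearson correlations of log2(CPM + 1), over the 11 AgRP and the 6 POMC libraries, among 13208 genes. For *Nptx2* they were *Txnrd1*, *Ppp2r2a* and *Mex3d* (lower r of 0.956 to 0.940), for *Asb4* *Hmox1*, *Ppp1r9a* and *Me1* (0.905 to 0.893), for *Cartpt* *Hsp90ab1*, *Mrpl23* and *Atp9a* (0.900 to 0.884), for *Prokr1* *Accs*, *Lhx2* and *Tm7sf3* (0.836 to 0.795) and for *Pomc* *Zmynd19*, *Tmem176a* and *Snx3* (0.788 to 0.742). The libraries share states, depth and the *Slc1a2* difference described above, and these values are a description.

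Accessibility near the 5 genes was then compared between AgRP-positive and AgRP-negative nuclei of fed mice, a readout that did not choose *Pomc*, *Cartpt* and *Prokr1*. The peaks called more open in AgRP-positive nuclei lay near *Cartpt* (4 of 9 peaks), *Asb4* (3 of 9), *Prokr1* (1 of 2) and *Pomc* (1 of 8). Of the 32 peaks 31 passed the filter of a mean over 1 CPM, and 9 were called more open and 1 less open in AgRP-positive nuclei, beside 39.6% of 66560 peaks called (23.9% more open, 15.6% less open). The number of more open peaks is near that share of all peaks. The counts therefore describe positions, and nothing is read from their size. Without composition scaling the median of all peaks shifted by 0.163 on the log2 scale, and 71.4% instead of 60.5% of all called peaks were more open. The window edge fell between peaks, the outermost peak inside it lying at 46.3 kb (*Asb4*) and the nearest outside at 52.3 kb (*Pomc*).

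The *Asb4* peak in the first intron, at +0.7 kb (chr6:5383666-5384516), was at 7.63 and 7.22 CPM in AgRP-negative and at 47.0 and 48.5 CPM in AgRP-positive nuclei, a log2 fold change of 2.68 ± 0.193 (FDR = 1.51e-40). This is the peak whose STAT and ISRE-like letters are printed above. The intergenic peak at -8.2 kb (chr6:5374872-5375534) was at 8.25 and 9.11 against 38.5 and 42.1 CPM, a change of 2.21 ± 0.192 (FDR = 4.34e-28). A peak in an intron at +20.2 kb was at 17.4 and 18.3 against 28.7 and 33.2 CPM (0.79 ± 0.174, FDR = 3.70e-05). The peak before the start, at -0.6 kb, ran the other way, at 12.2 and 9.47 against 6.93 and 7.75 CPM (FDR = 0.0688). GFP-positive and GFP-negative nuclei came from the same pools, and with the pool as a block this peak was called less open (-0.55, FDR = 0.0392) and a peak over an exon at +7.1 kb more open (1.08, FDR = 0.0329 against 0.0548 without the block).

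*Cartpt* RNA in AgRP neurons was low against POMC neurons, and the RNA of AgRP-negative cells was not compared. Near *Cartpt*, 4 of 9 peaks were more open in AgRP-positive than in AgRP-negative nuclei. They lay at +37.6 kb (0.369 and 0.710 against 3.91 and 4.33 CPM, log2 fold change 2.90 ± 0.645), +21.1 kb (3.08 and 3.08 against 14.6 and 6.83, 1.78 ± 0.325), -18.9 kb (8.62 and 9.11 against 28.8 and 21.0, 1.48 ± 0.210) and -36.9 kb (1.48 and 2.01 against 6.13 and 5.83, 1.76 ± 0.434), with FDR between 4.40e-11 and 0.000279. All are intergenic, with *Cartpt* the nearest gene. The peak at -9.3 kb was less open, at 9.72 and 12.5 against 7.02 and 4.83 CPM (-0.92 ± 0.269, FDR = 0.00268), a call lost without AgRP-negative replicate 2 (FDR = 0.126) or AgRP-positive replicate 2 (FDR = 0.0814). The peak over the RefSeq start, at +0.4 kb of the longer model, was at 3.69 and 4.02 against 6.22 and 5.83 CPM and was not called.

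At *Pomc* the only called peak of 8 was the intergenic one at -12.6 kb (chr12:3942074-3942700), at 3.82 and 3.67 CPM in AgRP-negative and 10.7 and 7.08 CPM in AgRP-positive nuclei (1.24 ± 0.324, FDR = 0.000705), and it missed the threshold without AgRP-positive replicate 1 (FDR = 0.0517). The peak at the start site was shallow, with 8 and 5 reads against 34 and 20, or 0.985 and 0.592 against 3.02 and 1.67 CPM. Its log2 fold change was 1.55 (FDR = 0.0590, and 0.0302 with the pool as a block). The strongest peak, over an exon at +5.2 kb, was at 30.4 and 36.1 against 29.8 and 37.1 CPM, a change of 0.01 (FDR = 0.973). The start of *Prokr1* was at 4.18 and 3.31 against 4.89 and 5.25 CPM and not called, and a peak at +39.1 kb, whose nearest gene is *Arhgap25*, was at 5.17 and 2.96 against 12.8 and 18.5 CPM (1.95 ± 0.277, FDR = 5.08e-11). The 3 tested *Nptx2* peaks had FDRs from 0.116 to 0.733, and the one at the start site was at 11.9 and 16.0 against 15.8 and 14.2 CPM.

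**Figure D3:**
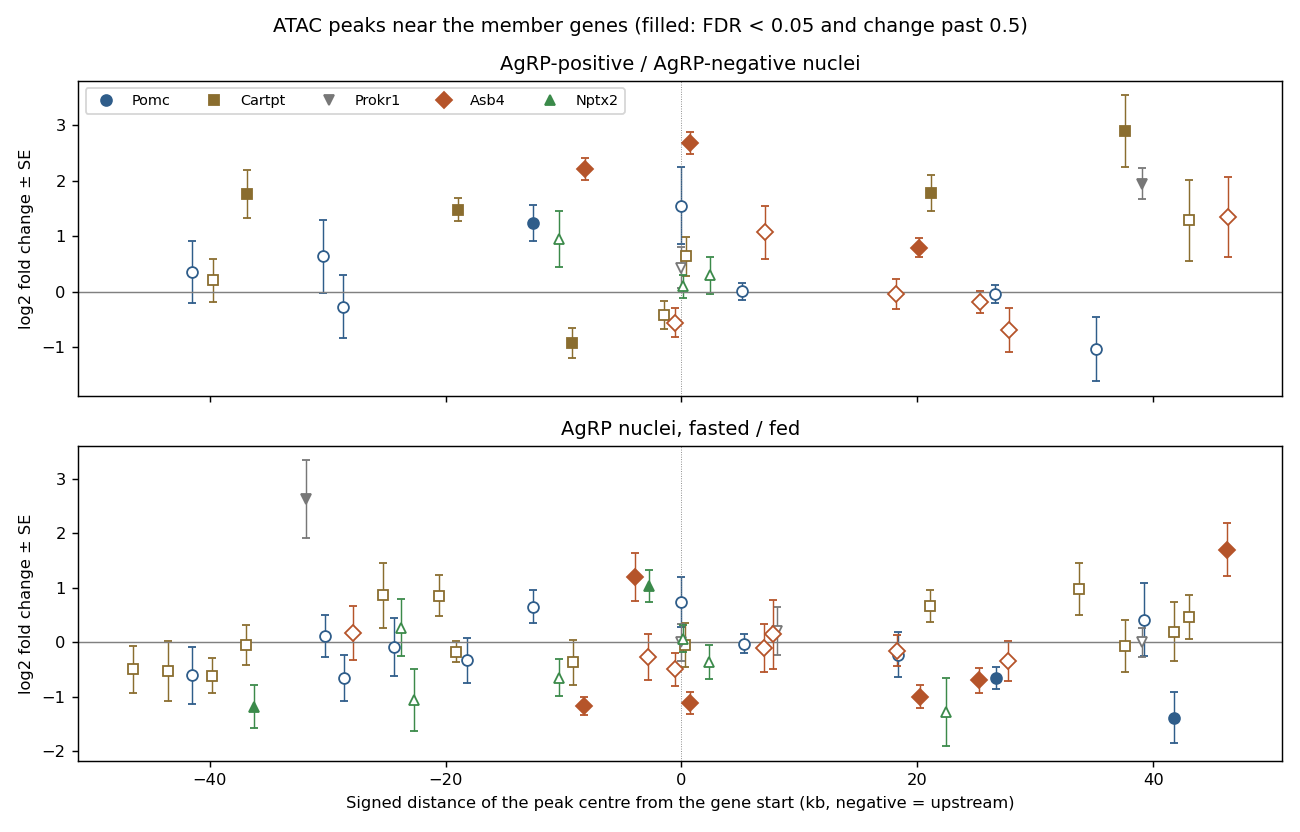
Log2 fold change with its standard error of each tested ATAC-seq peak against its signed distance in kb from the start of its gene (negative upstream), for AgRP-positive over AgRP-negative nuclei (31 peaks) and for fasted over fed AgRP nuclei (51 peaks), with filled symbols for called peaks. The *Asb4* peaks at -8.2, +0.7 and +20.2 kb are above 0 in the upper panel and below 0 in the lower.

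In AgRP nuclei of fasted mice, 3 *Asb4* peaks that overlap those more open in AgRP-positive nuclei were less open than in fed mice, and a peak just upstream of *Nptx2* was more open. Of the 57 peaks 51 were tested, and fasting called 4 more open and 7 less open, beside 27.0% of 102237 peaks called (18.1% more open, 8.88% less open). Without AgRP fasted replicate 1 or 2 or AgRP fed replicate 1 these became 2, 1 and 1 more open and 4 less open in each case. The *Asb4* peak at -8.2 kb went from 63.4 and 59.9 CPM in fed to 27.6 and 26.8 in fasted and 23.5 and 23.8 in leptin-treated mice, a fasting change of -1.18 ± 0.170 (FDR = 8.66e-05). The peak at +0.7 kb went from 54.4 and 40.1 to 24.3 and 18.6 CPM with fasting (-1.12 ± 0.202, FDR = 0.000514) and was at 33.4 and 32.2 after leptin. The peak at +20.2 kb went from 39.3 and 44.6 to 18.9 and 23.3 CPM (-1.0 ± 0.204, FDR = 0.00136) and was at 13.2 and 16.6 after leptin.

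These 3 calls held in all 12 alternatives run. *Asb4* RNA in the same neurons changed by -0.15 with fasting and rose with leptin. The peak before the *Asb4* start, at -0.5 kb, was at 11.7 and 10.3, 6.63 and 8.71, and 9.65 and 6.08 CPM in the 3 states and was not called. Weaker peaks at -3.9 kb and +46.2 kb were more open in fasted mice (1.2 and 1.70), the first at 1.49 and 2.38 CPM in fed and 3.31 and 6.04 in fasted nuclei and the second at 1.74 and 0.721 against 3.89 and 3.30. The first call was lost with DESeq2 (FDR = 0.0541), RLE scaling (FDR = 0.0524) and no filter (FDR = 0.0511). It was also lost without any 1 of the 6 libraries except AgRP fasted replicate 1 (0.710 to 1.64). The second was lost without AgRP fasted replicate 1 (1.58) or AgRP fed replicate 2 (1.03). A less open peak at +25.2 kb (-0.70) lost its call without AgRP fasted replicate 1 (FDR = 0.0538) or 2 (FDR = 0.191) or AgRP fed replicate 1 (FDR = 0.177).

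The *Nptx2* peak at -2.8 kb (chr5:144542793-144543425), with the STAT letters printed above, was at 5.46 and 8.65 CPM in fed, 13.4 and 16.7 in fasted and 22.6 and 19.0 in leptin-treated mice. It was more open by 1.03 ± 0.292 with fasting (FDR = 0.0123) and by 1.49 ± 0.282 after leptin against fed (FDR = 0.000436), in the order of the mean *Nptx2* RNA levels. Its step from fasted to leptin was not called. After leptin against fed it was the only 1 of 8 tested *Nptx2* peaks called more open, and 3 were called less open. Those lay at -36.3, -22.6 and -10.4 kb, and their calls were lost in 3, 6 and 1 of 12 alternatives. At -22.6 kb these included DESeq2 (FDR = 0.0926), library size alone (FDR = 0.0514) and each fed or leptin library left out. At -36.3 kb they were the fits without AgRP fed replicate 1 or AgRP leptin replicate 1 or 2. The fasting call at -2.8 kb was lost without AgRP fasted replicate 2 (0.88) or AgRP fed replicate 1 (0.78). The start-site peak of *Nptx2* was at 18.4 and 19.0, 21.4 and 17.8, and 29.3 and 19.7 CPM and was not called. A peak at -36.3 kb was less open in fasted mice (-1.19 ± 0.393, FDR = 0.0293), at 4.59 and 3.32 against 1.59 and 1.74 CPM. This call was lost with DESeq2 (FDR = 0.0738), and without AgRP fasted replicate 1 (-1.12) or 2 (-1.25) or AgRP fed replicate 1 (-1.01).

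Around *Pomc*, 2 of 12 tested peaks were less open in fasted mice, both within the neighbouring gene *Efr3b*. The peak at +26.7 kb was at 30.4 and 37.1 CPM in fed, 19.1 and 24.1 in fasted and 23.0 and 20.6 in leptin-treated mice (-0.66 ± 0.208, FDR = 0.0233), and lost its call without AgRP fasted replicate 1 (FDR = 0.193) or AgRP fed replicate 2 (FDR = 0.154). The peak at +41.8 kb (-1.39 ± 0.465, FDR = 0.0312) lost its call with DESeq2 (FDR = 0.115). It also lost it without AgRP fasted replicate 2 (-1.08), AgRP fed replicate 1 (-1.49) or AgRP fed replicate 2 (-1.26). The peak at -12.6 kb was at 7.57 and 11.1, 15.4 and 15.0, and 18.4 and 10.0 CPM and was not called. The 14 tested *Cartpt* peaks had FDRs of 0.0928 or more for fasting, and the *Prokr1* peak at -31.8 kb was called from 0.124 and 0.360 to 1.85 and 1.62 CPM (2.63 ± 0.713, FDR = 0.00939), a call that no fit without an AgRP fed library kept, and without either fasted library the peak fell under the filter.

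From fasted to leptin-treated mice, without a replicate block, edgeR and DESeq2 called none of the 51 peaks. Over all peaks edgeR called 3.08% (2.41% more open, 0.669% less open), and 10 of the 51 had an unadjusted p under 0.05. With the replicate number as a block edgeR did call peaks in this contrast, *Asb4* at +0.7 kb among them (given below). Against fed mice, leptin-treated mice had 6 more open and 12 less open peaks, beside 36.8% of all peaks called (23.3% more open, 13.4% less open). Without AgRP fed replicate 1 or AgRP leptin replicate 1 or 2 the less open peaks numbered 7, 5 and 4. The *Asb4* peaks at -8.2 kb (-1.38, FDR = 1.30e-05), +20.2 kb (-1.49, FDR = 3.70e-05) and +25.2 kb (-1.36, FDR = 0.000272) were less open, as in fasted mice. Of 13 tested *Asb4* peaks 5 were called less open and 2 more open. The less open calls at +0.7 and +18.3 kb were lost in 7 and 4 of 12 alternatives. The more open peaks lay at -3.9 kb, kept in all 12, and at +46.2 kb, lost only without AgRP fed replicate 2. The *Cartpt* peak at +21.1 kb was more open, at 5.34 and 10.2 CPM in fed, 13.3 and 12.8 in fasted and 17.9 and 18.4 in leptin-treated mice (1.14 ± 0.283, FDR = 0.00362), with *Cartpt* RNA at -0.07 in the same contrast. A *Cartpt* peak at +43.0 kb was also called more open, and 1 at -39.8 kb less open. These calls were lost in 5 and 3 of 12 alternatives. The *Nptx2* peak at -10.4 kb was less open (-1.42, FDR = 0.00518), a call lost without AgRP leptin replicate 2 (FDR = 0.122). The *Prokr1* peak at +39.1 kb, at 36.1 and 18.3 CPM in fed and 16.9 and 13.1 in leptin-treated mice, was less open (-0.81, FDR = 0.0252), a call lost without AgRP fed replicate 1 (FDR = 0.377) or AgRP leptin replicate 1 (FDR = 0.0587) or 2 (FDR = 0.218).

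**Figure D4:**
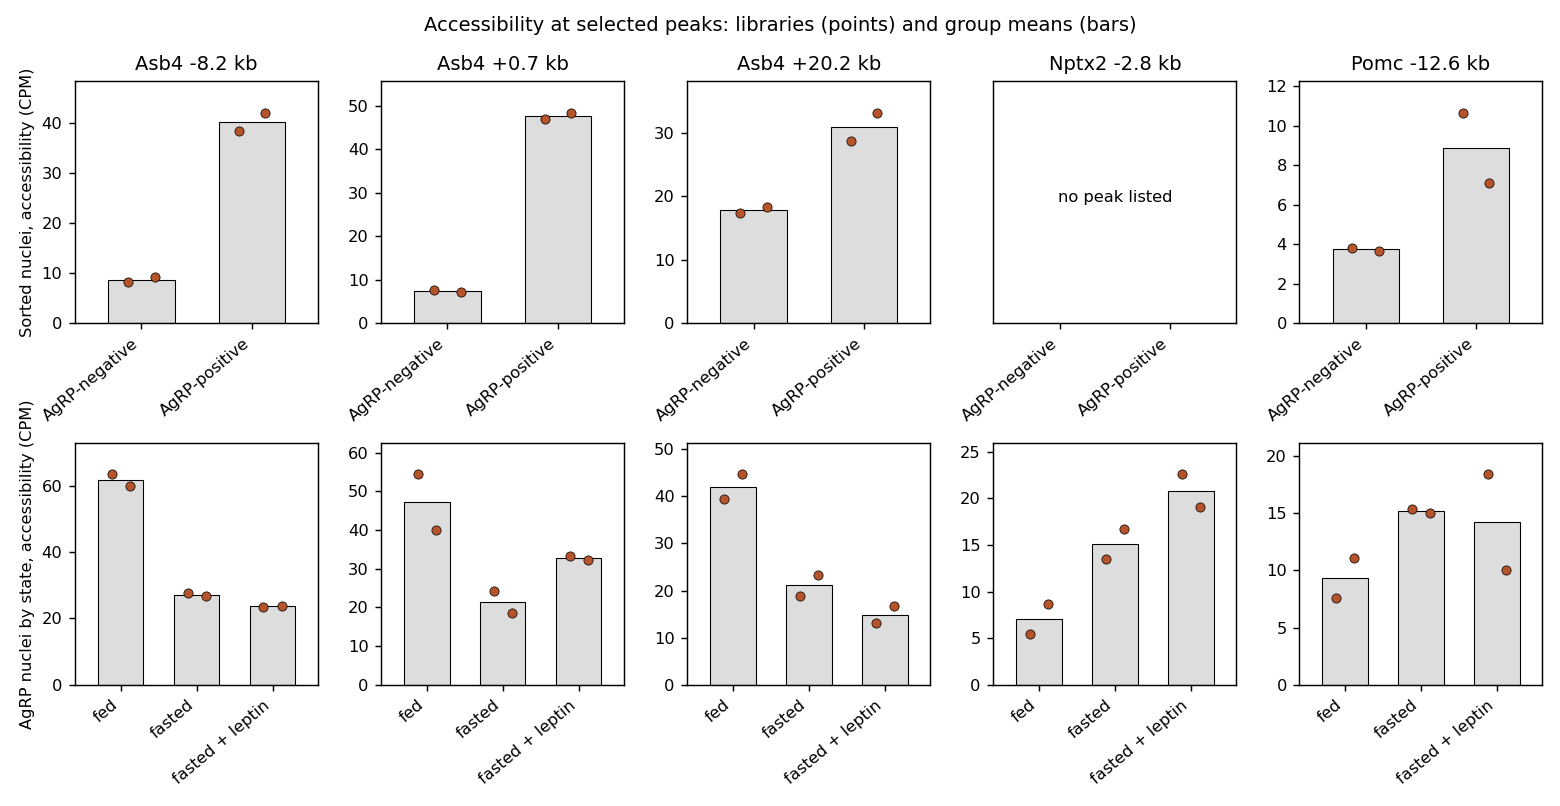
Accessibility in CPM at 5 peaks named by gene and signed distance from its start, in AgRP-negative and AgRP-positive nuclei (upper row) and in AgRP nuclei of fed, fasted and leptin-treated mice (lower row), with 1 point per library and bars at the mean of 2. The *Asb4* peaks are high in AgRP-positive and in fed nuclei, and the *Nptx2* peak, which is not listed in sorted nuclei, goes from 5.46 and 8.65 in fed to 22.6 and 19.0 after leptin.

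Binding maps were available as peak lists of 1 sample each, so they are given as positions without a test. CUT&RUN for IRF3, an interferon regulatory factor, in AgRP nuclei that carry a constitutively active IRF3 allele listed 30387 peaks, of which 4 lay within 50 kb of the *Asb4* start, 3 of *Pomc*, 2 of *Nptx2* and none of *Cartpt* or *Prokr1*. Of the *Asb4* peaks, those at -0.5, +20 and +25.4 kb overlapped ATAC-seq peaks of both tables, and 1 at +14.5 kb did not. The *Nptx2* peak at -0.1 kb and the *Pomc* peaks at -28.7 and +5.0 kb overlapped ATAC-seq peaks as well. CUT&RUN for the architectural protein CTCF in AgRP nuclei of fed mice gave a list of 51182 entries. It held 8 entries near *Asb4*, 7 of them over ATAC-seq peaks, including those at -8.2, +0.7 and +20.2 kb. The region at +0.7 kb was entered more than once. The list held 5 entries near *Cartpt*, 3 each near *Pomc* and *Nptx2* and 2 near *Prokr1*. Some were weak, with a -log10 q of 0.371 for *Cartpt* at -2.3 kb and *Nptx2* at +9.0 and +10.6 kb, and 0.549 for *Asb4* at -0.6 kb.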

How the data were processed

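RNA was measured by TRAP-seq in 17 libraries of AgRP and POMC neurons and open chromatin by ATAC-seq in 10 libraries. The deposited RNA values are raw counts, which the authors obtained with HISAT2 (mm10) and featureCounts, using gene models edited so that fewer transcripts overlap. ATAC-seq reads were mapped to mm10 with Bowtie2 and peaks called with MACS2, and the deposited tables hold read counts per peak. CUT&RUN peak lists hold deposited signal sums for IRF3 (SEACR) and, for CTCF, deposited fold enrichments with −log10 p-values and q-values (MACS2). Positions were used, and q-values for weak CTCF entries. Tool versions were not given in the sources used here. The 12 whole-arcuate RNA samples, the cerebellum CTCF samples and the IgG sample were not analysed here.

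Counts were scaled by TMM, and features with a mean over 1 CPM were tested with edgeR 4.0.16 quasi-likelihood fits (R 4.3.3), with Benjamini-Hochberg adjustment over all features tested. AgRP libraries of the 3 states shared a fit, as did POMC libraries and the state ATAC-seq libraries. POMC and AgRP neurons were compared within each state, on the libraries of that state alone, and the difference between their responses was fitted on all 17. Features were called at FDR under 0.05 and a log2 fold change past 0.5, as in the study's methods. Standard errors are those implied by the F statistic. Peaks were assigned by the distance of their nearest edge to the GENCODE start, and the distances given are those of their centres. Windows of 20 kb and 100 kb were alternatives to 50 kb, and the *Asb4* peak centred at +20.2 kb counts within 20 kb. Scripts were tested on simulated data. The named genes were the 5 genes in every contrast, called genes of each list (at most 5 by FDR), 3 genes of most similar pattern, and of each gene the peak nearest its start with up to 5 called peaks. Members and lists were chosen with earlier results of these data known.

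Replicate numbers paired the AgRP RNA libraries: residuals of same-numbered libraries correlated at 0.587 to 0.853 (10 pairs) and those of others at -0.691 to 0.695. The POMC libraries, of 2 numbers, gave 0.779 to 0.810 (6 pairs). With 2 libraries in a group the residuals mirror each other. Each of these values therefore occurs for both numbers, and pairs of unlike number give it with the opposite sign. The same holds for the ATAC-seq groups. Sorted nuclei of 1 number came from 1 pool (0.113). No 2 libraries agreed within counting noise. Where nothing says that samples of a group came from separate pools of mice, p-values measure the spread between these samples. Alternatives were DESeq2 1.42.0, RLE scaling, library size alone, no filter, the older edgeR fit, each library left out, a replicate block and, added after the data were seen, leaving out libraries with high *Slc1a2*.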

Additional observations from a re-analysis of the deposited data

How the results depend on the processing

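Over all alternatives, 762 of 850 values for single genes kept their direction and their side of the threshold, 27 lost and 19 gained a call, and 42 changed sign, all of them uncalled values of at most 0.35 in size. DESeq2 called 1 gene (*Asb4*, against 0) for the fasting difference between neuron types. Library size alone and the fit of all 17 libraries each called 1 gene, against 2, for AgRP leptin against fasted and for leptin against fed, and no filter called 1 for leptin against fed. With 1 library left out in turn, the counts ranged from 0 to 2 for AgRP leptin against fasted, from 1 to 2 for leptin against fed and from 0 to 1 for the fasting difference. Where this left 1 library in a group, that library is assumed to vary like the others.

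The replicate block called 1 gene for AgRP fasted against fed, and in sorted nuclei 2 less open peaks against 1. In POMC neurons it called 2 genes for fasted against fed, 1 for leptin against fasted and 2 for leptin against fed, and it called 2 for the fasting difference, each against 0. State ATAC-seq libraries share only a number (-0.00869 to 0.193). There the block called 2 more open and 1 less open peak for leptin against fasted, among them *Asb4* at +0.7 kb (0.63, FDR = 0.0337), and it added *Cartpt* at -20.5 kb for fasting (0.90, FDR = 0.0412) and for leptin against fed (0.96, FDR = 0.0206). For leptin against fed it also added *Pomc* at -28.6 kb, *Asb4* at -27.8 kb and *Nptx2* at +22.5 kb. It removed no call of these genes or their peaks.

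Sorted nuclei had 5 more open peaks within 20 kb and 5 less open within 100 kb, fasting had 2 more and 3 less open within 20 kb and 9 and 11 within 100 kb, and leptin against fasted had 1 more open within 100 kb. Leptin against fed, tried after the data were seen, had 2 more and 5 less open within 20 kb and 14 more and 16 less open within 100 kb. Leaving out 1 library gave 0 to 2 less open peaks in sorted nuclei, 1 to 3 more and 4 to 7 less open for fasting, 0 to 1 less open for leptin against fasted and 4 to 12 less open for leptin against fed.

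Sign changes with 1 library left out gave these ranges. In AgRP neurons *Cartpt* ran from -0.22 to 0.016 for fasting, -0.16 to 0.18 for leptin against fasted and -0.23 to 0.12 for leptin against fed. In POMC neurons fasting gave -0.66 to 0.038 for *Pomc* and -0.16 to 0.63 for *Prokr1*, and leptin against fasted -0.76 to 0.24 for *Cartpt* and -0.26 to 0.51 for *Asb4*. Leptin against fed gave -0.46 to 0.24 for *Pomc*, -0.75 to 0.24 for *Prokr1* and -0.41 to 0.26 for *Nptx2*. The fasting difference gave -0.30 to 0.39 for *Pomc* and -0.49 to 0.30 for *Prokr1*, and the leptin difference -0.76 to 0.24 for *Cartpt* and -0.41 to 0.62 for *Prokr1*. *Cartpt* in AgRP leptin against fasted, 0.00 as reported, was -0.0067 by library size alone, -0.029 with the replicate block, -0.010 without the libraries numbered 4 and -0.00056 in the fit of all 17 libraries. *Pomc* in the fasting difference was -0.0083 with no filter, -0.017 with the replicate block and -0.056 without the libraries numbered 4.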
